A study of Mus musculus with 6 samples.

Results

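The genes described are 10 genes of YAP and TEAD signaling, namely Ankrd1, Ctgf, Cyr61, Amotl2, Ajuba, Lats2, Yap1, Wwtr1, Tead1 and Tead4. The list is one of symbols, with no threshold on a measured value, and all 10 were found among the 24421 gene symbols of the count table. The values are RNA-seq read counts from 6 libraries of mouse endothelial cells in which the histone H3K79 methyltransferase gene Dot1l was deleted or overexpressed. Cont and cKO blood endothelial cells (BECs) came from the skin of E15.5 embryos that carried floxed Dot1l (Dot1l 2f/2f) with no Cre (Cont) or with Tie2-Cre (cKO), and they were sorted as F4/80-, CD45- and Lyve1- cells, for which the study's scheme of the isolation also names CD31+ as a criterion. The labels call the Cont embryos wild type, while the study's methods give them the floxed alleles. Tie2-Cre is driven by an endothelial promoter that is also active in part of the blood lineage. RNA of 2 to 3 embryos was pooled into 1 library of each genotype. The cultured cells were a yolk sac BEC line (CRL-2581) and dermal lymphatic endothelial cells (LECs, C57-6064L), both of embryonic origin. They received either empty lentivirus (Cont BECs, Cont LECs) or a lentivirus carrying dCas9 fused to the activator VP64 with guides to the Dot1l promoter (OE-BECs, OE-LECs). For each condition the sorted GFP+ cells of 2 to 3 flasks gave 1 library. No condition therefore has a replicate, and every comparison below is between 2 libraries with no test of the condition.

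YAP (Yap1) and TAZ (Wwtr1) are transcriptional coactivators that do not bind DNA themselves. When the Hippo kinases, among them LATS2, phosphorylate them they are held in the cytoplasm and degraded, and when they reach the nucleus they bind TEAD factors and switch on genes such as Ctgf, Cyr61 and Ankrd1. In endothelial cells this pathway responds to stiffness, flow and cell density and takes part in vessel sprouting. Several targets feed back on it, since AMOTL2 retains YAP at junctions, LATS2 phosphorylates it and AJUBA inhibits the LATS kinases.

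Total counts ranged from 8863349 to 31032461 reads. Dot1l had 762 reads in Cont BECs of the skin and 944 in cKO BECs, which is 86.0 and 85.2 reads per 1000000 (CPM), so the count over the whole gene did not separate these libraries and the latter is called the library labelled cKO. The study itself checked the knockout by RT-qPCR of Dot1l and reported it as successful. Dot1l was 302 CPM in OE-BECs against 112 in their control and 217 CPM in OE-LECs against 95.3 in theirs. The lymphatic regulator Prox1 had 0 reads in both LEC libraries but 1304 and 883 reads in the skin BEC libraries. The gating antigen Lyve1 reached 1027 and 1801 CPM in the skin BEC libraries. It was 1998 and 1962 CPM in Cont LECs and OE-LECs, against 604 and 1061 CPM in Cont BECs and OE-BECs of the culture. Lyve1 thus matched the LEC label and Prox1 did not, while neither marker matched the skin BEC label. Of other lymphatic genes, Pdpn and Ccl21a had 0 reads in both LEC libraries, Mmrn1 0 and 1, and Reln 1 and 1. Flt4 was 107 and 130 CPM in Cont LECs and OE-LECs, against 144 and 98.3 CPM in Cont BECs and OE-BECs of the culture. In Cont BECs of the skin Mmrn1 was 835 CPM and Reln 465 CPM. Macrophage genes were present in both skin libraries although CD45+ and F4/80+ cells had been depleted. Of 12 such genes, 11 had the higher normalized count in the library labelled cKO.

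TEAD factors recognise the letters GGAATG in promoters and enhancers. Read from the other strand, these letters appear as CATTCC. The promoter windows of 3 of the 4 members called higher in OE-BECs are shown to give the letters in their setting. The windows are RefSeq sequence of GRCm38.p6, the assembly of mm10, from 250 bases before to 50 bases after the transcription start, read along the gene, with motif matches in capitals. The Ankrd1 window lies at chr19:36119795-36120094 on the minus strand, the Cyr61 window at chr3:145649936-145650235 on the minus strand and the Amotl2 window at chr9:102717554-102717853 on the plus strand.

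Ankrd1: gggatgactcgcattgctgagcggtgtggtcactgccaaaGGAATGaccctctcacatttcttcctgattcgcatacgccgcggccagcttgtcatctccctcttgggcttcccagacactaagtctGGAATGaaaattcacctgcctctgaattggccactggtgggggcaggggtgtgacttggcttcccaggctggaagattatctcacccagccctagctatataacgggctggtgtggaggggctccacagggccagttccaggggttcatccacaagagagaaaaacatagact
Cyr61: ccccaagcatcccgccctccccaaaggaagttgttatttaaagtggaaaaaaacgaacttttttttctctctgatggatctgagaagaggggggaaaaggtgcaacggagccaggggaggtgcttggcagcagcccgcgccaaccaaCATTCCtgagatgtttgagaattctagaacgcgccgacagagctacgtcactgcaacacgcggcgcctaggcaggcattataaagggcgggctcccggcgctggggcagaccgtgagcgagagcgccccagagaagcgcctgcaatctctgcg
Amotl2: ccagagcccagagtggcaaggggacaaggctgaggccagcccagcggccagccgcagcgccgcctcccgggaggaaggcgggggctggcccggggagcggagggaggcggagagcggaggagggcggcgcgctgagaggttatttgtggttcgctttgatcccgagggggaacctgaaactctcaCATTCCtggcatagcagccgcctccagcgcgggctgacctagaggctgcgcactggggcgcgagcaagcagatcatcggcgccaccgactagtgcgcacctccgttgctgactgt

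Ankrd1 held 2 matches, which began 210 and 123 bases before the start. Cyr61 held 1 match at 103 bases and Amotl2 1 match at 65 bases before the start. For the remaining members with a window, the stretches around each match are printed, since the genes differed in their counts but not in holding the letters. Those of Ajuba lie at chr14:54577830-54577859 and chr14:54577808-54577837, that of Lats2 at chr14:57746102-57746131, that of Yap1 at chr9:8004720-8004749 and that of Wwtr1 at chr3:57576029-57576058, all on the minus strand.

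Ajuba, 186 bases before: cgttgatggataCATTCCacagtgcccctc
Ajuba, 164 bases before: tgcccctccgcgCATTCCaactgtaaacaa
Lats2, 5 bases after: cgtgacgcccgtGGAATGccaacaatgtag
Yap1, 141 bases before: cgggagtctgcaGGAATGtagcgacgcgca
Wwtr1, 136 bases before: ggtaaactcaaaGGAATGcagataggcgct

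All 7 members with a window held at least 1 match in either direction, and of their 9 windows 8 did, the exception being a second start of Lats2. Of all 32851 windows of the same length, 14.7% held the motif, and of 27025 genes 16.6% held it in any window. These 7 genes include Yap1 and Wwtr1, whose counts were lower in OE-BECs, so genes of either direction held the letters. The AP-1 motif, the letters TGA and TCA with any base between them, which covers both strands, was found in 0 of the 7 and in 7.81% of all windows. A match is a string of letters and not a measured binding site. No window was given for Ctgf, Tead1 and Tead4.

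**Figure D1:**
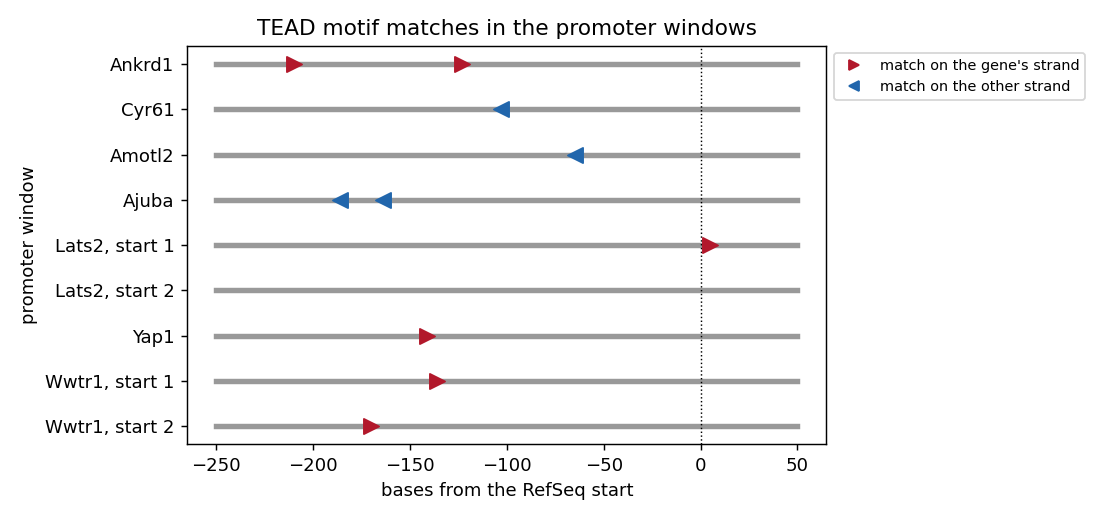
Matches of the TEAD motif in the promoter windows of 7 members, by their distance in bases from the RefSeq start (0, dotted line). Grey bars are the windows, and triangles are matches on the gene's own strand (red) or on the other strand (blue), of which Ankrd1 and Ajuba hold 2 each and the second start of Lats2 holds 0.

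A level is given as CPM. A log2 ratio compares counts of the changed and the control library after normalization with the median of ratios method. Its 95% counting interval is the exact (Clopper-Pearson) interval from the reads of both libraries. The interval covers counting error only, because no condition has a replicate. Reads amplified by PCR are not independent molecules, so the interval may be too narrow even for counting error. Following the study's methods, a gene counts as called where one normalized count of the pair exceeds 3 times the other and reaches at least 3 (OE) or 5 (cKO).

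Ankrd1, on chromosome 19 of mm10 from 36111961 to 36120099, encodes an ankyrin repeat protein of stretched muscle and is a widely used YAP readout. Its level was 0.451 CPM in Cont BECs and 10.1 CPM in cKO BECs of the skin, 1.98 CPM in Cont BECs and 29.2 CPM in OE-BECs of the culture, and 19.8 CPM in Cont LECs and 30.2 CPM in OE-LECs. The skin and yolk sac BEC controls were the lowest libraries, and the library labelled cKO lay between them and the LECs. In OE-BECs its 407 reads against 35 gave a 15.2-fold higher normalized count (log2 ratio 3.92, interval 3.42 to 4.46). In the library labelled cKO its 112 reads stood against only 4, so the log2 ratio of 4.43 had a wide interval, from 3.03 to 6.33. In OE-LECs the ratio was smaller, at 0.63 (interval 0.47 to 0.78).

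Ctgf (Ccn2), on chromosome 10 from 24595442 to 24598683, encodes a secreted matricellular protein of the CCN family. It was measured at 31.1 CPM in Cont and 122 CPM in cKO BECs of the skin, 54.3 CPM in Cont BECs and 185 CPM in OE-BECs, and 321 CPM in Cont LECs and 390.3 CPM in OE-LECs. The libraries took nearly the same order as for Ankrd1, with the 2 LEC libraries highest. Its log2 ratio was 1.92 (interval 1.73 to 2.11) in the library labelled cKO, 1.80 (interval 1.70 to 1.91) in OE-BECs and 0.30 (interval 0.26 to 0.34) in OE-LECs. An antisense gene covers 23.2% of its exon bases in the annotation but has no row in the count table, and although the study's methods name a VERSE option (-S), it was not settled here whether that option makes the counting use strand.

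Cyr61 (Ccn1), on chromosome 3 from 145646976 to 145649981, encodes a second CCN protein and is often read together with Ctgf. Here their counts parted in the skin. Cyr61 was 190.3 CPM in Cont and 194 CPM in cKO BECs, a log2 ratio of -0.03 (interval -0.12 to 0.07) that turned to 0.03 with library totals, so no direction can be given. In culture it was 66.4 CPM in Cont BECs and 229.6 CPM in OE-BECs, and 281 CPM in Cont LECs and 233 CPM in OE-LECs. The log2 ratio was 1.83 (interval 1.73 to 1.93) in OE-BECs and -0.25 (interval -0.30 to -0.20) in OE-LECs.

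Amotl2, on chromosome 9 from 102716672 to 102733418, encodes the angiomotin-like scaffold that holds YAP at junctions. Its level was 128.5 CPM in Cont and 172 CPM in cKO BECs, 80.7 CPM in Cont BECs and 272 CPM in OE-BECs, and 152 CPM in Cont LECs and 163 CPM in OE-LECs. OE-BECs were the highest of all libraries and their own control the lowest. The log2 ratio was 1.79 (interval 1.70 to 1.88) in OE-BECs, 0.36 (interval 0.26 to 0.47) in the library labelled cKO and 0.12 (interval 0.06 to 0.18) in OE-LECs.

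Ajuba, on chromosome 14 from 54567472 to 54577558, a LIM protein that inhibits LATS kinases, was 29.4 and 32.7 CPM in Cont and cKO BECs, 11.8 and 21.7 CPM in Cont BECs and OE-BECs, and 23.1 and 28.0 CPM in Cont LECs and OE-LECs. The log2 ratio of 0.93 in OE-BECs (interval 0.67 to 1.19) stayed under the rule. Lats2, on chromosome 14 from 57689662 to 57758388, the Hippo kinase and target, was 119.9 and 115 CPM in Cont and cKO BECs, 70.9 and 78.3 CPM in Cont BECs and OE-BECs, and 57.1 and 63.9 CPM in Cont LECs and OE-LECs. Its log2 ratios of 0.18 in OE-BECs (interval 0.06 to 0.30), 0.18 in OE-LECs (interval 0.08 to 0.28) and -0.11 in the library labelled cKO (interval -0.23 to 0.01) all lay close to 0, and in OE-BECs no other of the 6 target genes had so small a ratio. In the annotation another gene of the same strand, which has no row in the count table, shares 42.4% of the exon bases of Lats2.

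Targets were called higher in OE-BECs and in the library labelled cKO. In both, the coactivator genes Yap1 and Wwtr1 had lower normalized counts than in the control. Across the libraries, however, Yap1 was highest in OE-LECs, as were Ankrd1 and Ctgf. Yap1, on chromosome 9 from 7931999 to 8004596, was 117 and 99.1 CPM in Cont and cKO BECs, 142 and 120.4 CPM in Cont BECs and OE-BECs, and 163 and 170.5 CPM in Cont LECs and OE-LECs. Its log2 ratios were -0.29 (interval -0.42 to -0.17) in the library labelled cKO, -0.20 (interval -0.29 to -0.11) in OE-BECs and 0.08 (interval 0.02 to 0.14) in OE-LECs. Wwtr1, on chromosome 3 from 57455649 to 57575910, was 239.6 and 159 CPM in Cont and cKO BECs, 186 and 133 CPM in Cont BECs and OE-BECs, and 183 CPM in both LEC libraries. Its log2 ratios were -0.65 (interval -0.74 to -0.55) in the library labelled cKO, -0.45 (interval -0.53 to -0.36) in OE-BECs and 0.01 (interval -0.04 to 0.07) in OE-LECs, where the sign changed with library totals. Neither gene was called in any comparison, and transcript counts do not show where the proteins are or whether they are phosphorylated.

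The TEAD factors, which bind the DNA, were unlike each other. Tead1, on chromosome 7 from 112679318 to 112906807, was 141 and 103 CPM in Cont and cKO BECs, 98.7 and 138 CPM in Cont BECs and OE-BECs, and 159 and 172 CPM in Cont LECs and OE-LECs. Its log2 ratio was -0.51 (interval -0.63 to -0.39) in the library labelled cKO, 0.52 (interval 0.43 to 0.62) in OE-BECs and 0.13 (interval 0.07 to 0.19) in OE-LECs. Tead4, on chromosome 6 from 128224288 to 128300823, was 8.01 and 12.9 CPM in Cont and cKO BECs, 23.7 and 46.4 CPM in Cont BECs and OE-BECs, and 29.6 and 45.8 CPM in Cont LECs and OE-LECs. It was higher in the changed library of each pair, with log2 ratios of 0.63 (interval 0.21 to 1.06) in the library labelled cKO, 1.01 (interval 0.83 to 1.19) in OE-BECs and 0.65 (interval 0.52 to 0.78) in OE-LECs.

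**Figure D2:**
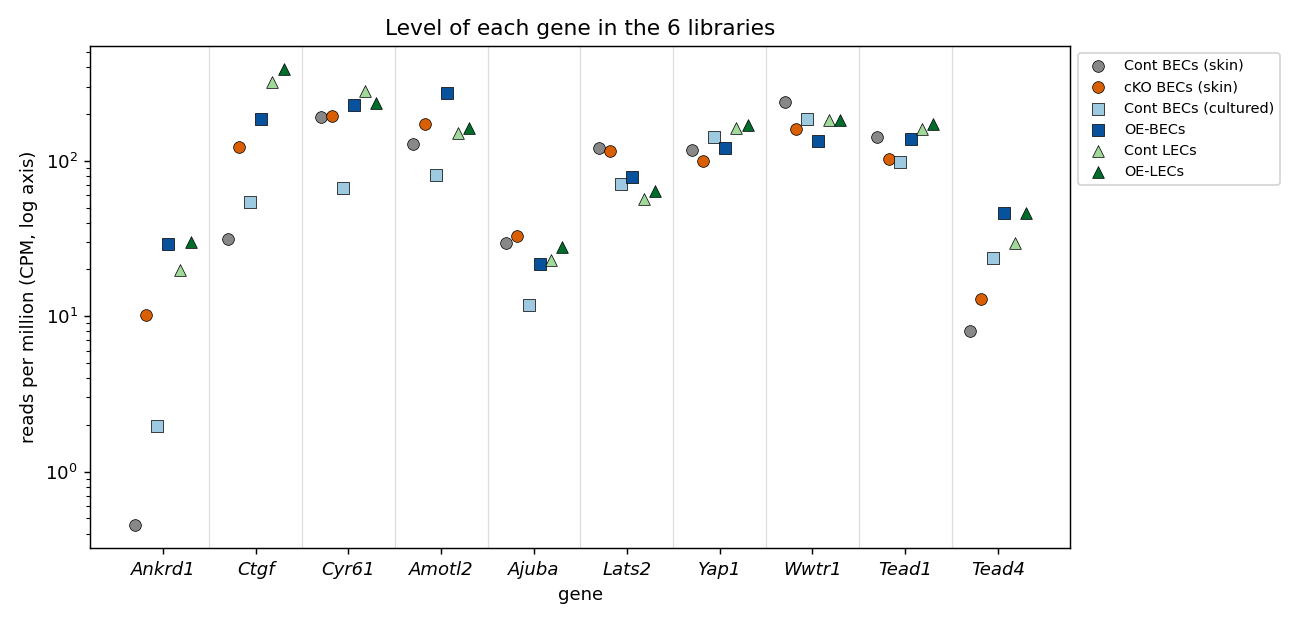
Level of each of the 10 genes in CPM (log axis) in the 6 libraries, 1 point a library, with circles for skin BECs, squares for cultured BECs and triangles for LECs. Ankrd1 spans 0.451 to 30.2 CPM, while Yap1 stays between 99.1 and 170.5 CPM and Wwtr1 between 133 and 239.6 CPM.

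In OE-BECs, 4 of the 10 genes were called higher, namely Ankrd1, Ctgf, Cyr61 and Amotl2, and 0 were called lower. Over all genes that reached the minimum, 8.02% were called higher and 5.27% lower. Many of those had few reads, and with a minimum of 20 normalized counts 1.85% were called higher, while the members called were still these 4. At a 2-fold limit Tead4 was added at 2.01-fold, so 5 of 10 were higher and 0 lower, against 11.4% and 8.81% of all genes, and Ajuba stood just under the limit at 1.90-fold. The counting interval lay off 0 for 10 of 10 members, but also for 57.4% of all genes with 10 reads or more in this pair, so the interval alone does not set the members apart. The median log2 ratio of the 10 genes, with a pseudocount of 1, was 0.96 against -0.01 over all genes.

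In OE-LECs, 0 of the 10 genes were called in either direction, at 2-fold as well as at 3-fold. Of all genes 2.77% were called higher and 2.09% lower at 3-fold (0.919% higher with a minimum of 20), and 4.98% and 4.26% at 2-fold. The members lay between -0.25 for Cyr61 and 0.65 for Tead4, with a median of 0.15 against 0.00 for all genes. The interval was off 0 for 9 of 10, and for 45.6% of all genes.

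In the library labelled cKO, 2 of the 10 genes were called higher, Ankrd1 and Ctgf, and 0 lower. Among all genes 5.17% were called higher and 2.41% lower, or 2.73% higher with a minimum of 20. The 2-fold limit gave the same 2 genes, where 10.4% of all genes were higher and 5.23% lower. The interval lay off 0 for 7 of 10 members, 4 above and 3 below, and for 48.5% of all genes. The median log2 ratio was 0.04 against 0.00 over all genes, so the list was not displaced as a whole. Tead1, Yap1 and Wwtr1 lay below 0.

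**Figure D3:**
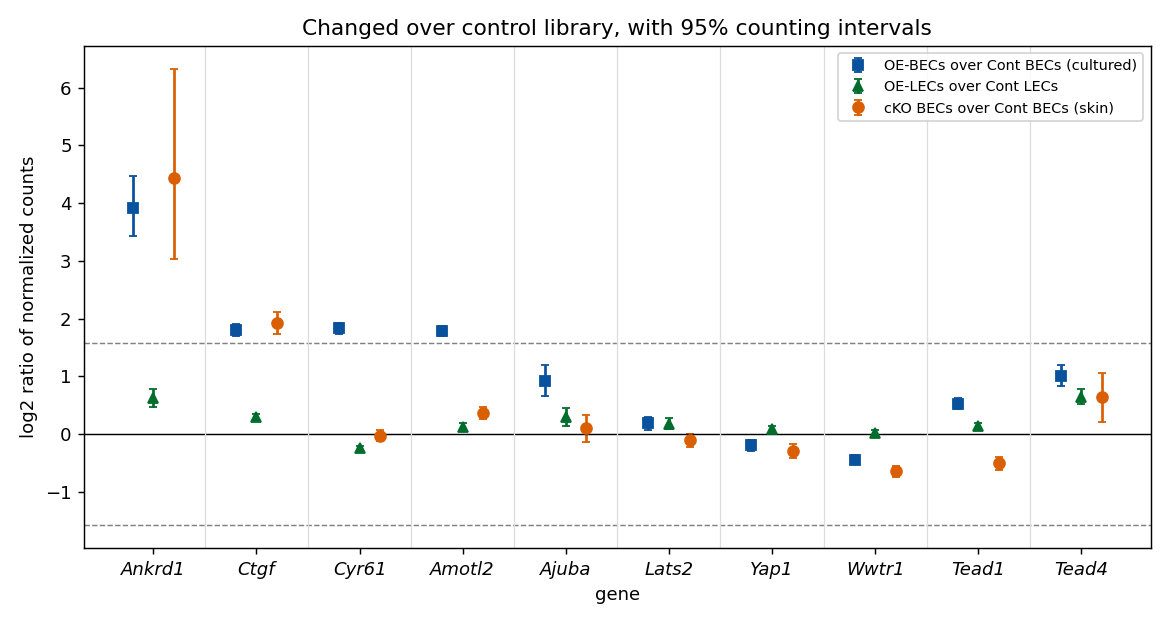
Log2 ratio of normalized counts, changed over control library, for each gene in OE-BECs (squares), OE-LECs (triangles) and the library labelled cKO (circles), with 95% counting intervals as bars and the 3-fold limit as dashed lines. Ankrd1, Ctgf, Cyr61 and Amotl2 lie above the limit in OE-BECs, and Ankrd1 and Ctgf do so in the library labelled cKO, while no gene does in OE-LECs.

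The overexpression pairs differed for most members. The log2 ratio in OE-BECs exceeded that in OE-LECs by 3.29 for Ankrd1 (interval 2.77 to 3.82), 2.08 for Cyr61 (interval 1.97 to 2.19), 1.67 for Amotl2 (interval 1.56 to 1.77) and 1.5 for Ctgf (interval 1.39 to 1.62). These intervals rest on counting error alone. They lay above 0 for 7 members, below 0 for Yap1 and Wwtr1, and held 0 for Lats2, whose difference was 0.00 (interval -0.15 to 0.16). Without replicates it was not tested whether the lines respond differently.

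The starting levels of the cultured lines differed as well. Of the controls, LECs were above BECs by 5.91-fold for Ctgf and 4.24-fold for Cyr61 by CPM, and Ankrd1 was 19.8 against 1.98 CPM. These were the 3 members more than 2-fold apart. Between OE-LECs and OE-BECs only Ctgf was more than 2-fold apart, at 2.11-fold, with Ankrd1 at 1.03-fold and Cyr61 at 1.02-fold. Amotl2 was 1.88-fold higher in the LEC control but 1.67-fold higher in OE-BECs than in OE-LECs. For Cyr61 and Ctgf the LEC control already lay above OE-BECs, and for Ankrd1 it lay between the BEC libraries.

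Per kilobase of exon, which allows levels of different genes to be compared, Cyr61 was the highest member in 4 of the 6 libraries, at 94.3 CPM per kilobase in Cont BECs of the skin, 96.2 in the library labelled cKO, 114 in OE-BECs and 139 in Cont LECs. Wwtr1 was highest in Cont BECs of the culture at 39.0, and Ctgf in OE-LECs at 136. Wwtr1 exceeded Yap1 in all 6 libraries, by 50.1 to 12.6 in Cont BECs of the skin and 27.9 to 13.0 in OE-BECs. Tead4, at 2.23 in Cont BECs of the skin against 10.4 for Tead1, reached 12.9 against 10.2 in OE-BECs and 12.7 against 12.6 in OE-LECs, and the latter values are too close to order. Exon lengths are the union over annotated transcripts, which need not be the transcripts used in these cells.

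Other target genes were mixed in direction. Of 17 further YAP/TAZ targets, the rest of a target signature known from cancer, 14 had 10 reads or more in the cultured BEC pair, of which 10 were higher and 4 lower in OE-BECs, with intervals above 0 for 7 and below 0 for 3. By the 3-fold rule 3 were called higher and 1 lower. Of all 13396 genes with 10 reads or more in this pair, 436 were called higher and 463 lower. Axl, a receptor tyrosine kinase, was called higher at 11.5-fold (14 and 123 reads), as were F3, the initiator of coagulation, at 3.26-fold (14 and 35 reads) and the kinase gene Nuak2 at 3.10-fold (8 and 19 reads). Igfbp3, an IGF binding protein, was called lower at 5.29-fold, from 97087 to 14062 reads. The median log2 ratio of these genes was 0.28 in OE-BECs, against -0.01 over all genes and 0.96 for the members. The difference from the members was not tested. With no filter on low counts the median of these targets was 0.06, as it was with at least 100 reads in the pair. In OE-LECs Axl alone was called higher, at 6.05-fold (176 and 1249 reads), and 0 were called lower, with a median of 0.11. Of all 13028 genes with 10 reads or more in the LEC pair, 194 were called higher and 113 lower. In the library labelled cKO 0 of 15 were called, the median was -0.06, and Axl was 64.5 and 64.2 CPM in the skin libraries. Of all 15554 genes with 10 reads or more in the skin pair, 659 were called higher and 265 lower.

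Of 26 further genes of the Hippo pathway, which include its kinases, adaptors and cadherins, 22 had 10 reads or more in the cultured BEC pair. The paralog Tead3 was called higher there at 3.73-fold on 7 and 20 reads, and 0 were called lower. Of all 13396 genes with 10 reads or more in this pair, 436 were called higher and 463 lower. The median log2 ratio was -0.04 in OE-BECs, -0.06 in OE-LECs and -0.11 in the library labelled cKO. In these last 2 comparisons 0 were called. Of all genes with 10 reads or more, 194 of 13028 were called higher and 113 lower in OE-LECs. In the library labelled cKO 659 of 15554 were called higher and 265 lower. The core kinase genes Stk3, Stk4 and Lats1 were 72.3 and 69.2, 44.2 and 46.6, and 78.7 and 74.2 CPM in Cont BECs and OE-BECs. The large cadherins Fat4 and Dchs1, ligand and receptor of each other, were the members of this list past 2-fold lower in OE-BECs, at 226 and 98.9 CPM and at 239.8 and 81.1 CPM. Dchs1 was past 2-fold lower in OE-LECs as well, at 116 and 47.7 CPM. Of all genes with 10 reads or more, 961 of 13396 were past 2-fold lower in OE-BECs and 337 of 13028 in OE-LECs.

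**Figure D4:**
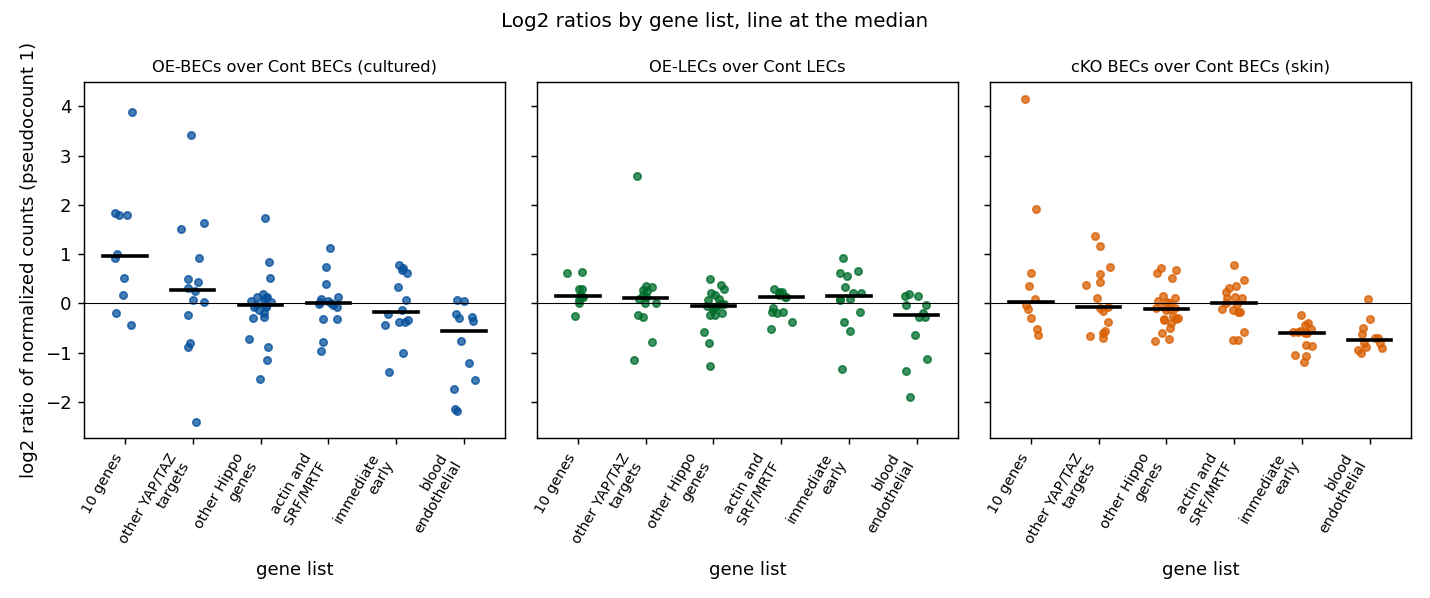
Log2 ratio of normalized counts with a pseudocount of 1 for the genes of 6 lists that had 10 reads or more in a pair, in OE-BECs, OE-LECs and the library labelled cKO, 1 point a gene and a line at the median. The 10 genes have a median of 0.96 in OE-BECs, 0.15 in OE-LECs and 0.04 in the library labelled cKO, and the blood endothelial genes have the lowest median in each panel.

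Genes of other programs moved with these results. In OE-BECs 10 of 12 blood endothelial genes had the lower normalized count. The summed level of the 12 was 9847 CPM in the control and 6563 CPM after overexpression. Vwf, Flt1 and Cldn5 were called lower at 4.53-fold, 4.40-fold and 3.31-fold. In OE-LECs 9 of 12 were lower (8522 and 7918 CPM), and Vwf was called lower. Of all genes with 10 reads or more, 463 of 13396 were called lower in OE-BECs and 113 of 13028 in OE-LECs. In the library labelled cKO 11 of 12 were lower (6561 and 4091 CPM). The 12 macrophage genes summed to 4066 CPM in Cont BECs of the skin and 6370 CPM in the library labelled cKO. The 9 keratinocyte genes summed to 262 and 414 CPM in the same libraries. Of these, 6 were higher and 3 lower, and Krt1 and Krt10 were called higher. Among all 15554 genes with 10 reads or more in this skin pair, 659 were called higher. Fibroblast genes summed to 2537 and 1870 CPM and pericyte and smooth muscle genes to 825 and 670.0 CPM there. Lymphatic genes summed to 2788 and 3246 CPM, but 4 of the 6 with enough reads were lower, with a median log2 ratio of -0.22. Lyve1 alone went from 1027 to 1801 CPM. In bulk RNA, fewer cells of a type and less RNA per cell cannot be told apart, and the part of these lists in the values of Ankrd1 and Ctgf was not tested. A CD31+ gate would remove fibroblasts, pericytes and keratinocytes, whose genes were nevertheless counted in both skin libraries.

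Ankrd1 is also a gene of striated muscle. The 12 skeletal muscle genes summed to 138 CPM in Cont BECs of the skin and 118 CPM in the library labelled cKO. Of the 11 with enough reads, 8 were lower and 3 higher, among the latter Tnni2 at 12 and 44 reads. Ankrd1 was higher there, and the part of muscle RNA in its counts was not tested. In culture the same 12 genes summed to 4.75 CPM in Cont BECs and 12.1 CPM in OE-BECs, most of it from Ttn, the titin gene, whose protein binds ANKRD1. Ttn was called higher at 3.27-fold, from 59 to 148 reads, and it was 0.919 and 0.999 CPM in Cont LECs and OE-LECs. Among the other muscle genes, 5 were at 0 in the cultured BEC control and 6 after overexpression.

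Ctgf and Cyr61 belong to the genes that respond within minutes to serum and to tissue dissociation. All 14 immediate early genes of a list that included Fos, Jun, Egr1 and Atf3 were lower in the library labelled cKO, with a median log2 ratio of -0.59 and sums of 4152 and 2699.6 CPM. Ctgf was higher in that library and Cyr61 was not. In OE-BECs 8 of the 14 were lower and 6 higher (990 and 968 CPM), with Jun at 73.8 and 124 CPM and Fos at 947 and 278 reads. A list of 17 genes of the actin cytoskeleton and of SRF and its cofactors is read beside YAP as a response to tension. Of those with 10 reads or more 0 were called in any comparison. The medians of this list were 0.01, 0.12 and 0.01 in OE-BECs, OE-LECs and the library labelled cKO. Of all genes with 10 reads or more, those called ran from 113 of 13028 (lower in OE-LECs) to 659 of 15554 (higher in the library labelled cKO).

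Over the 6 libraries, the profile nearest to that of Ankrd1 among 11153 genes with at least 10 CPM in some library was that of Ctgf, at a Euclidean distance of 1.46 between centred log2(CPM + 1) values. The next were Adm (1.77), the gene of the vasoactive peptide adrenomedullin, Nipal1 (1.97), Ly75 (2.01) and Rras2 (2.10). Adm took 7.11 and 45.0 CPM in Cont and cKO BECs of the skin and it was 51.2 CPM in OE-BECs and 97.9 CPM in Cont LECs. Nearest to Ctgf were Nipal1 (0.784), Adm (0.888) and Ly75 (1.04), and Ankrd1 stood at position 18. Cyr61 had other neighbours, the small MAF factor gene Maff (0.508), Tm4sf1 (0.716) and S100a10 (0.745), with Ajuba (1.04) and Amotl2 (1.05) at positions 79 and 83 and Ctgf far behind at position 7942. The skin control was the lowest library for Ankrd1 and Ctgf, and the cultured BEC control for Cyr61, Ajuba and Amotl2. The distances describe 6 libraries that differ in tissue, line and depth at once.

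**Figure D5:**
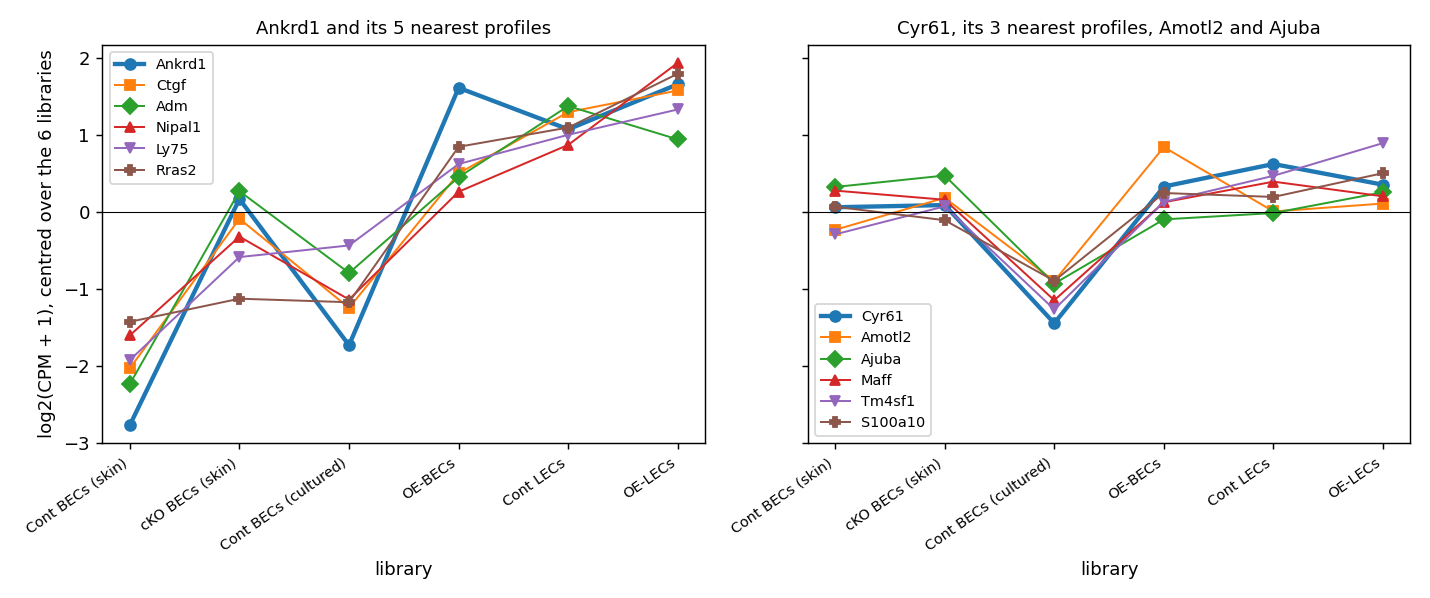
Centred log2(CPM + 1) across the 6 libraries for Ankrd1 with its 5 nearest genes (left) and for Cyr61 with its 3 nearest genes, Amotl2 and Ajuba (right), 1 line a gene. On the left the skin control is lowest for all 6 genes, and on the right the cultured BEC control is lowest.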

How the data were processed

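Libraries were made with ScriptSeq v2. The authors trimmed adapters with skewer, aligned the reads to mm10 with STAR (also named in the submitters' processing notes), counted reads per gene with VERSE and deposited the raw counts, which are whole numbers with no normalization. Depth was 8863349 to 31032461 reads in the 6 libraries, grouped by their titles, 1 for each condition.

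From these counts CPM and, for each of 3 pairs, median of ratios factors (DESeq2 1.42.0, R 4.3.3) were computed, with log2 ratios, exact 95% intervals and calls by the study's rule (Python 3.11.15, scipy 1.17.1). With 1 library a condition edgeR's quasi-likelihood test could not be run, so no p-value is given. List counts cover genes with 10 reads or more in a pair. Positions and exon lengths came from GENCODE M21, promoters from RefSeq (GRCm38.p6). Ctgf and Cyr61 were matched there as Ccn2 and Ccn1.

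The members and lists were chosen with earlier results of these data known. The genes named are all members, listed genes that were called, paralogs, and the nearest profiles of Ankrd1 (5), Ctgf and Cyr61 (3 each). Stk3, Stk4, Lats1, Fat4, Dchs1, Jun, Fos, Zyx and the Vgll genes were named outside this rule, after their values were seen. Alternatives were library totals, TMM (edgeR 4.0.16), factors over all 6 libraries, a minimum of 20, other pseudocounts and read filters, and assumed biological variation. The steps were tested on simulated data.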

Additional observations from a re-analysis of the deposited data

Results flagged for a closer look

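Cyr61 and Yap1 had counting intervals on opposite sides of 0 in the overexpression pairs. For Cyr61 the log2 ratio was 1.83 in OE-BECs and -0.25 in OE-LECs. For Yap1 it was -0.20 in OE-BECs and 0.0785 in OE-LECs. With 1 library a condition, the difference between the lines was not tested.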

How the results depend on the processing

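Whether the counting interval lay off 0 was kept for all 30 log2 ratios of single members under library totals, TMM and factors over all 6 libraries, which moved the ratios by at most 0.06. With library totals the sign changed for 2 ratios whose intervals held 0, Cyr61 in the library labelled cKO (-0.03 to 0.03) and Wwtr1 in OE-LECs (0.014 to -0.0043). The counts of called members, of members past 2-fold and the sign of the medians of the members, the other targets and the other Hippo genes also held under each alternative tried for them, though 1 fewer member was past 2-fold in OE-BECs with library totals, where Tead4 dropped out. The median of the other targets did change in size. In OE-BECs it went from 0.28 to 0.06 with no filter on low counts and with at least 100 reads. In OE-LECs it went from 0.11 to 0.0078 with no filter. The number of members with an interval off 0 depended on the error assumed. With a biological CV of 0.2, which is assumed, added to the counting error it went from 10 to 6 in OE-BECs, from 9 to 0 in OE-LECs and from 7 to 2 in the library labelled cKO, and with 0.4 it was 4, 0 and 2, which follows from the wider intervals. Ankrd1 in Cont BECs of the skin rests on 4 reads, so its fold there is known only within 8.19 to 80.5. No paired analysis was possible because each condition has 1 library, and for the same reason no library could be left out.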

Other observations

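The other CCN genes were scarce beside Ctgf and Cyr61. Nov (Ccn3) was 11.2 and 13.8 CPM in Cont and cKO BECs of the skin, 1.36 and 3.09 CPM in Cont BECs and OE-BECs, and 3.83 and 5.54 CPM in Cont LECs and OE-LECs. Wisp1 (Ccn4) took the opposite course in culture, at 23.3 and 7.61 CPM in Cont BECs and OE-BECs and 19.8 and 12.9 CPM in Cont LECs and OE-LECs, while it was 10.8 and 18.6 CPM in the skin. Its fold in OE-BECs was under the rule, with a log2 ratio of -1.58 (interval -1.90 to -1.26). Wisp3 stayed at 1.62 CPM or less, and Wisp2 had 2 reads in the library labelled cKO and 0 in the other libraries.

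Among the partners of TEAD, Tead2 was 60.6 and 51.1 CPM in the skin and 50.8 and 52.8 CPM in the LECs with no call, and Tead3 was 6.21 and 6.68 CPM in the skin libraries but 1.44 CPM or less in culture. Of the VGLL cofactors, which compete with YAP for TEAD, Vgll4 was 34.0 and 17.9 CPM in Cont BECs and OE-BECs and 22.7 and 19.1 CPM in Cont LECs and OE-LECs, Vgll3 was 8.12 and 13.0 CPM in the skin and at 0 reads in the 4 cultured libraries, and Vgll1 was at 0 reads in all 6. Zyx, a LIM protein of focal adhesions, was 271 and 134 CPM in Cont BECs and OE-BECs.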
